A study of Rattus norvegicus with 16 samples.

Results

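Transcripts of the mitochondrial ribosomal proteins were measured in the left ventricles of 16 adult male Sprague-Dawley rats with an aortocaval fistula (ACF), a shunt that overloads the heart with volume, or without one. Members were all genes whose annotated symbol begins with Mrpl or Mrps followed by a digit, 73 of the 14217 genes measured, with 46 named for the large and 27 for the small subunit. Groups of 4 rats were taken as controls or once the fistula had been open for 8, 16 or 24 weeks, and each rat had its own array. The sample labels call the control rats baseline, whereas the study's text speaks of sham controls, so age and surgery cannot be told apart from the ACF where these rats were killed at baseline. The 24-week arrays are described as 24, 25, 26 and 27 weeks, although their titles all read 24. Values are log2 intensities after each array was centred on its own median, so that a value of 1 is a signal of 2 times the median probe set of that array. A gene was called when the adjusted p of the linear model fitted with limma to all genes was under 0.05.

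Mitochondrial ribosomes translate the proteins of the inner membrane that mitochondrial DNA encodes, all of them subunits of the respiratory chain and ATP synthase. Their RNAs come from mitochondrial DNA, but all of their proteins are encoded in the nucleus, made in the cytosol and imported. Some of these proteins have counterparts in bacterial ribosomes and others are found only in mitochondria. The small subunit binds and decodes the mRNA, and the large subunit joins the amino acids and holds the exit tunnel. The heart is rich in mitochondria, and inherited defects of several of these proteins in humans cause cardiomyopathy.

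The array medians before centring lay at 2 levels, a higher one of 6.13 to 6.17 in 9 arrays (the 4 controls, 3 from 8 weeks and 2 from 16 weeks) and a lower one of 5.92 to 5.96 in 7 (1 from 8 weeks, 2 from 16 weeks and the 4 from 24 weeks). The defining markers of cardiomyocytes were present and none of 11 measured was called at 16 weeks, with a summed level of 2066 to 2558 times the array median at 16 weeks and 2439 to 2600 in control rats. The 2066 was that of 16-week replicate 1 alone, and replicates 2, 3 and 4 were at 2378 to 2558. At an unadjusted p under 0.05, 3 of the 11 were lower at 16 weeks, Ckm (log2 difference -0.62, adjusted p = 0.0621), Myh6 (-0.47, adjusted p = 0.186) and Tcap (-0.35, adjusted p = 0.169), and the median of the list was -0.01. All 12 macrophage markers rose at 16 weeks, their sum being 117 to 211 at 16 weeks and 49.4 to 65.5 in control rats. Of 10 fibroblast and matrix markers 6 rose, with sums of 374 to 503 at 16 weeks and 261 to 338 in control rats. Of 7 endothelial markers 1 rose, Vwf, with sums of 92.6 to 123 at 16 weeks and 84.9 to 106 in control rats. The part of these shifts in the results below was not tested. In whole ventricle, fewer cells of a type and less RNA per cell cannot be told apart. All 73 members had a mean above the median of the arrays.

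At 16 weeks the family lay lower as a whole, by a small amount, and 9 of its 73 members (12.3%) fell, while none rose. Over all genes, 3.26% fell and 5.83% rose. The median log2 difference from control was -0.21 over the members and 0.00 over all genes, and 66 members lay below 0, against 50.4% of all genes. At an unadjusted p under 0.05, 32 members were lower and 1 was higher, where 10.2% of all genes were lower. In 19 members, all 4 arrays at 16 weeks lay below all 4 control arrays, as in 6.31% of all genes. At 8 and 24 weeks no member was called. By the methods' unpaired test after adjustment no member was called at 16 weeks, where 0.464% of all genes fell and 1.08% rose. The count of 9 by limma also depended on single arrays. It was 1 without control replicate 1, control replicate 2, 16-week replicate 1 or 16-week replicate 2, 2 without control replicate 3, 4 without 16-week replicate 3 and 5 without 8-week replicate 1 or 24-week replicate 3, and Mrpl38 was called in each of these. In the same fits the share of all genes that fell was 1.38% to 3.03%, and the members' median was -0.17 to -0.24.

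**Figure D1:**
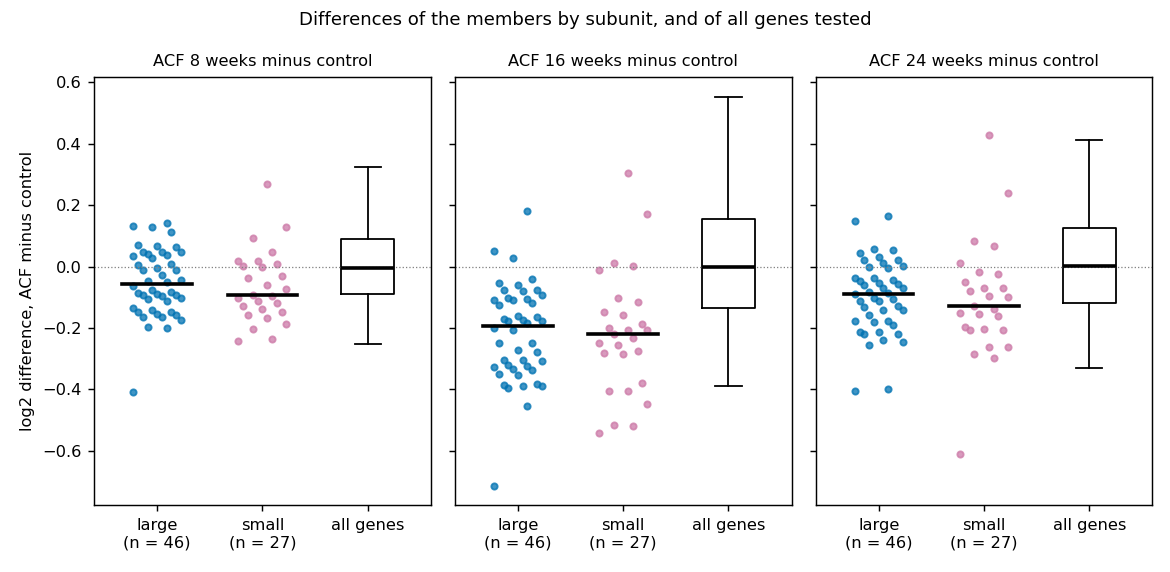
Log2 difference from control (vertical axis) at 8, 16 and 24 weeks for the 46 large and 27 small subunit members (points, with the median as a bar) and for all 14217 genes (box: quartiles and median; whiskers: the 5 and 95 percentiles). At 16 weeks the subunit medians are -0.19 and -0.22 and that of all genes 0.00.

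At 16 weeks the large subunit had a median log2 difference of -0.19 and the small subunit of -0.22. Of the large subunit 3 of 46 members (6.52%) fell, namely Mrpl38, Mrpl2 and Mrpl44, and 43 lay below 0. Of the small subunit 6 of 27 (22.2%) fell, namely Mrps28, Mrps24, Mrps35, Mrps16, Mrps27 and Mrps11, and 23 lay below 0. Whether the shares called differ between the subunits was not tested, since genes on the same arrays are not replicates. The symbols do not always give the place of the protein. Mrps18a and Mrps30 are named for the small subunit, but their proteins (mL66 and mL65 in the current nomenclature) sit in the large one. With both moved, 3 of 48 and 6 of 25 members fell, and the medians at 16 weeks were -0.19 and -0.22. Large minus small subunit medians came to 0.04, 0.03 and 0.04 at 8, 16 and 24 weeks. None of these signs held throughout, since the difference was -0.016 at 8 weeks without control replicate 4, -0.029 at 16 weeks within the arrays of the higher level and -0.0053 at 24 weeks with the array level as a block. Taken in each array, this difference was -0.02 to 0.02 in control rats, -0.03 to 0.07 at 8 weeks, -0.07 to 0.12 at 16 weeks and -0.02 to 0.06 at 24 weeks, so that each group overlapped the controls.

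Mrpl38 was the member with the largest difference at 16 weeks. It encodes mL38, a protein found only in mitochondria that helps to build the central protuberance of the large subunit. Its values were 2.39, 2.47, 2.69 and 2.38 in control rats, 2.05, 2.29, 2.06 and 1.90 at 8 weeks, 1.28, 1.86, 1.91 and 2.02 at 16 weeks and 2.27, 1.75, 2.08 and 2.21 at 24 weeks. All 12 arrays after the ACF lay below all 4 control arrays. No other member showed this, and 0.844% of all genes did. The log2 difference was -0.41 at 8 weeks (SE 0.15, adjusted p = 0.443), -0.71 at 16 weeks (SE 0.15, adjusted p = 0.00848) and -0.40 at 24 weeks (SE 0.15, adjusted p = 0.192). At 16 weeks the level was thus 0.61 of that in control rats. The exact two-sided permutation test gave p = 0.0286 at each time, the smallest that 4 arrays against 4 allow. Mrpl38 was called at 16 weeks whichever of the 16 arrays was left out, but not without both 16-week replicates 1 and 2 (-0.51, adjusted p = 0.1) or by the methods' unpaired test (adjusted p = 0.11).

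The small subunit members that fell included proteins along the path of the mRNA. Mrps24 encodes uS3m, at the entry of the mRNA channel. It had values of 3.68, 3.88, 4.04 and 4.14 at 16 weeks and 4.41, 4.33, 4.41 and 4.39 in control rats, and the groups did not overlap (log2 difference -0.45, SE 0.12, adjusted p = 0.0283). The 24-week values ranged from 4.08 to 4.60, on both sides of the control rats. Mrps11, which encodes uS11m on the platform near the mRNA exit, stood at 1.76, 1.99, 1.95 and 2.12 at 16 weeks and 2.54, 2.37, 2.18 and 2.24 in control rats (log2 difference -0.38, SE 0.12, adjusted p = 0.0492). Here too the groups did not overlap, although the highest 16-week array came close to the lowest control. Of the 5 members assigned to the mRNA path and decoding site, these 2 fell. Mrps5 was at -0.21 and Mrps7 at -0.15, and Mrps12, which encodes uS12m of the decoding centre, at 0.17, none of them called.

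Mrps28 encodes bS1m, a counterpart of a bacterial small subunit protein. Its values were 2.79, 2.95, 3.15 and 3.25 at 16 weeks and 3.68, 3.66, 3.47 and 3.39 in control rats, with no overlap (log2 difference -0.52, SE 0.13, adjusted p = 0.0231). Mrps16, the gene of bS16m in the body of the small subunit, was at 3.99, 4.20, 4.22 and 4.36 at 16 weeks and 4.72, 4.68, 4.55 and 4.44 in control rats (log2 difference -0.41, SE 0.12, adjusted p = 0.0431). Again every 16-week array was below every control array. Mrps27 encodes mS27, a protein with pentatricopeptide repeats, a fold that binds RNA in other proteins. It measured 1.79, 1.73, 2.05 and 2.12 at 16 weeks and 2.55, 2.34, 2.61 and 2.26 in control rats (log2 difference -0.52, SE 0.16, adjusted p = 0.0481), without overlap. Mrps35, whose product mS35 is found only in mitochondria, gave 3.27, 3.57, 3.47 and 3.76 at 16 weeks and 3.76, 4.05, 4.01 and 3.87 in control rats (log2 difference -0.40, SE 0.12, adjusted p = 0.0412). Its highest 16-week array and its lowest control array were nearly level.

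Of the large subunit, Mrpl2 and Mrpl44 fell besides Mrpl38. Mrpl2 encodes uL2m, which binds rRNA near the peptidyl transferase centre, and was at 2.72, 2.87, 2.67 and 3.06 at 16 weeks and 3.36, 3.27, 3.19 and 3.06 in control rats (log2 difference -0.39, SE 0.11, adjusted p = 0.0313). Mrpl44 encodes mL44, a protein with a ribonuclease III fold in which human mutations cause cardiomyopathy. It was at 2.87, 2.83, 3.05 and 3.21 at 16 weeks and 3.38, 3.51, 3.45 and 3.20 in control rats (log2 difference -0.39, SE 0.12, adjusted p = 0.0466). In these 2 genes the highest 16-week array reached the lowest control array (exact two-sided permutation test, p = 0.0571 for each), while in the other 7 the groups did not overlap (p = 0.0286 for each by the same exact test). These exact p are not adjusted, and those of the 7 only restate the lack of overlap, in genes already called on the same arrays. Of all genes, 6.31% had all 4 arrays at 16 weeks below all 4 control arrays. Just past the threshold stood Mrpl34 (-0.38, adjusted p = 0.052) and Mrpl14 (-0.38, adjusted p = 0.0552), and then Mrpl40 (-0.33, adjusted p = 0.0709) and Mrpl12 (-0.39, adjusted p = 0.0712).

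**Figure D2:**
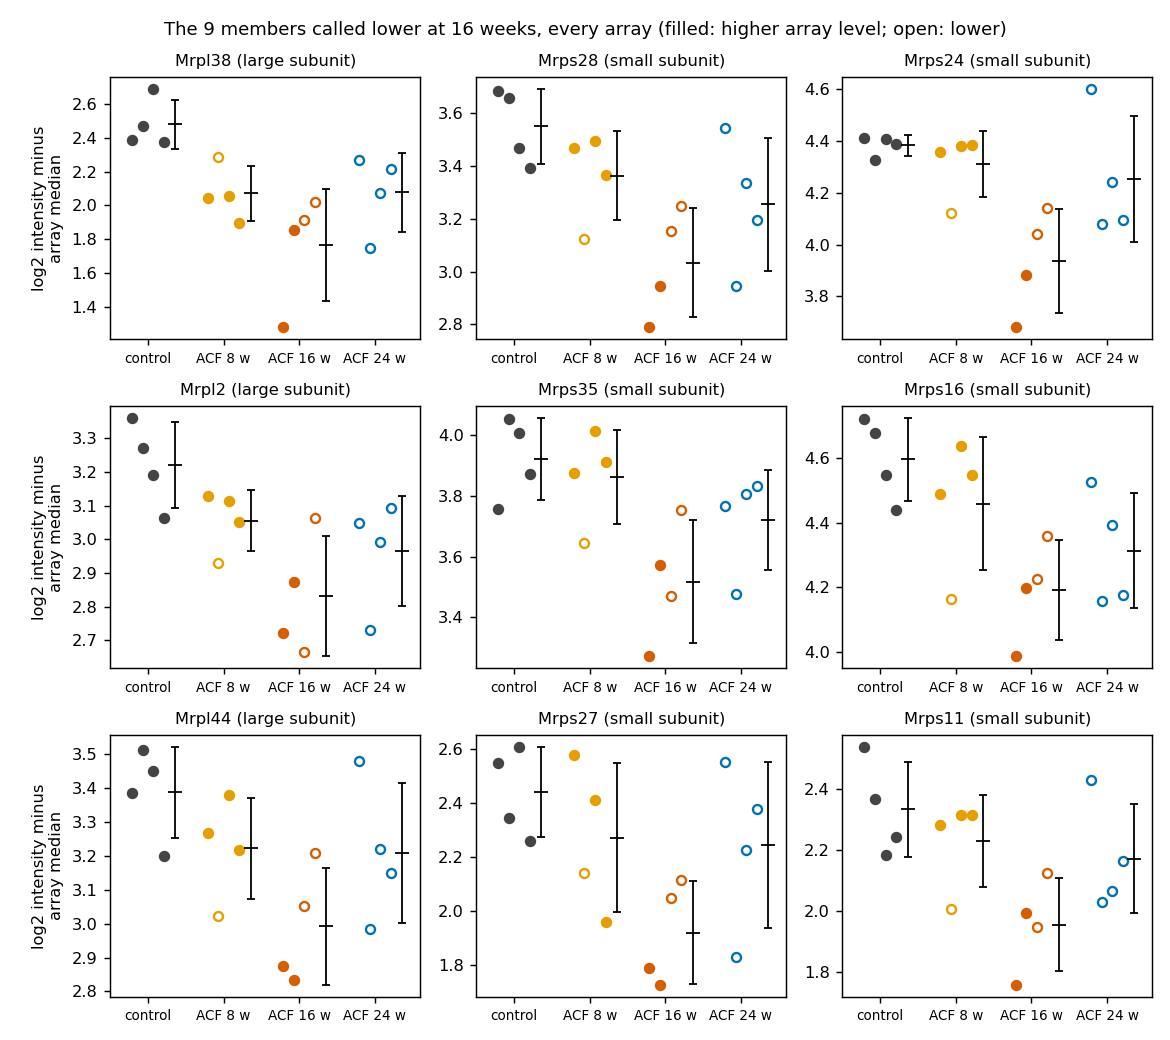
Log2 intensity minus the array median (vertical axis) in every array of the 4 groups (horizontal axis) for the 9 members that fell at 16 weeks; bars are the mean and SD of 4 arrays, and filled and open points mark the higher and lower array level. Mrpl38 lies below the control arrays in all 12 arrays after the ACF, and in all 9 genes 16-week replicate 4 is the highest of its group.

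The same arrays were low in many members at once. At 16 weeks the median over the large subunit, as a difference from the control mean, was -0.32, -0.35, -0.13 and -0.08 in the 4 rats, and that over the small subunit -0.27, -0.27, -0.25 and -0.11. In control rats it was 0.10, 0.08, 0.00 and -0.18 for the large and 0.11, 0.10, -0.02 and -0.16 for the small subunit. The groups overlapped, since control replicate 4 lay below 16-week replicates 3 and 4 in the large subunit and below replicate 4 in the small one. In control replicate 4, 70 of 73 members lay below the control mean, and it was the lowest of the 4 controls in 62. At 8 weeks replicate 2 was the lowest of its group in 62 members, with 69 below the control mean. At 24 weeks replicate 1 was the highest of its group in 60 members, with 18 below the control mean, and replicates 2, 3 and 4 had 65, 59 and 65. The median over all members at 16 weeks was -0.30 in replicates 1 and 2 and -0.12 in replicates 3 and 4. Replicates 1 and 2 were at the higher array level and had macrophage sums of 211 and 159, while replicates 3 and 4 were at the lower level with sums of 117 and 142. Cardiomyocyte sums were 2066 and 2378 in replicates 1 and 2 and 2453 and 2558 in replicates 3 and 4. Fibroblast and matrix sums were 503 and 474 in replicates 1 and 2 and 383 and 374 in replicates 3 and 4. Control replicate 4, 8-week replicate 2 and 24-week replicate 2 also had the highest fibroblast and matrix sum of their groups (338, 410 and 422.5). Their macrophage sums were the highest of the controls (65.5), the lowest at 8 weeks (94.8) and the highest at 24 weeks (122). By contrast, 24-week replicate 4, also with 65 members below the control mean, had the lowest sums of its group on both lists. These were 322.5 for fibroblast and matrix and 70.6 for macrophage markers. The part of the array level or of any of these sums in the members' values was not tested. Without 16-week replicates 1 and 2, which leaves replicates 3 and 4 alone at that time, no member was called at 16 weeks. In that fit 0.45% of all genes fell, against 3.26% with all arrays.

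**Figure D3:**
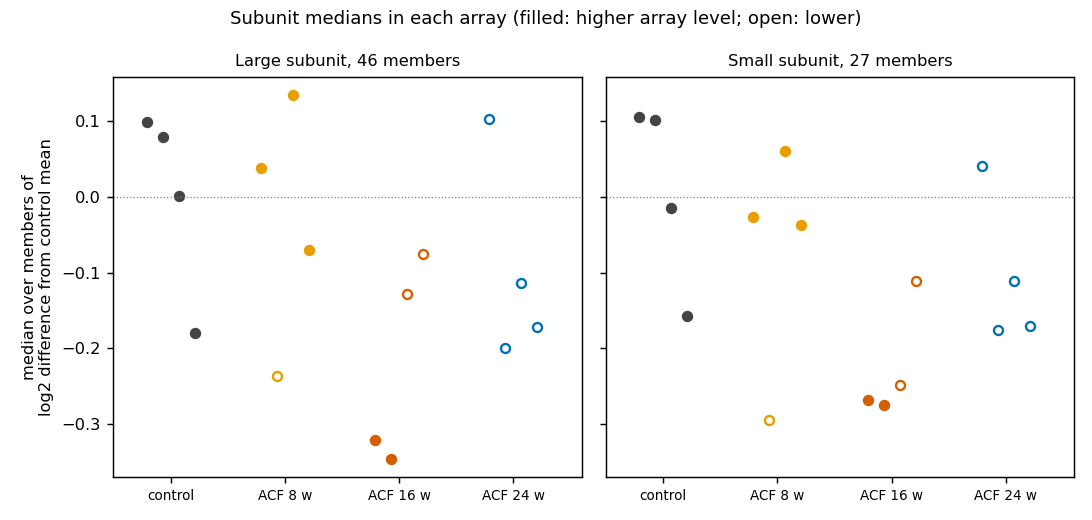
Median over the members of the log2 difference from the control mean (vertical axis) in each array of the 4 groups (horizontal axis), for the large and the small subunit; filled and open points mark the higher and lower array level. The lowest large subunit medians, -0.32 and -0.35, belong to 16-week replicates 1 and 2, and control replicate 4 lies at -0.18.

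Rats of the same group ranged widely, and RNA quality can be read in part from the 3' and 5' probe sets of Gapdh and actin. The 3' minus 5' log2 difference of Gapdh was 0.44 to 0.71 at 16 weeks (median 0.61) and 0.37 to 0.67 in control rats (median 0.46). That of actin was 1.58 to 1.84 at 16 weeks (median 1.72) and 1.25 to 1.88 in control rats (median 1.43). At 24 weeks the medians were 0.63 for Gapdh and 1.62 for actin. The ranges thus overlapped, but the medians after 16 and 24 weeks were higher than in control rats. Control replicate 4, at 0.47 and 1.31, was within the range of the other controls on both. The part of RNA quality in the members' values was not tested.

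By site in the ribosome, the 6 members assigned to the central protuberance (Mrpl18, Mrpl38, Mrpl40, Mrpl46, Mrpl48 and Mrpl52) had a median of -0.33 at 16 weeks, with 1 called and all 6 below 0. The 4 members near the peptidyl transferase centre had a median of -0.14, with 1 called, and the 4 at the exit tunnel had -0.19, with none called. Mrpl12, which encodes the stalk protein that recruits translation factors, was at -0.39 and its stalk partner Mrpl10 at 0.05, neither of them called. The 42 members with a counterpart in bacteria had a median of -0.19 and 5 called, and the 31 found only in mitochondria had -0.23 and 4 called. Mrps18 has 3 forms in mammals, and none of them was called at 16 weeks. Mrps18c, the gene of bS18m, was at -0.24, -0.54 and -0.61 at 8, 16 and 24 weeks, with adjusted p = 0.188 at 16 weeks. Its control values ranged from 2.25 to 2.96, and dimmer probe sets of the same gene were at -0.13 and 0.08 at 16 weeks. Mrps18b, the gene of mS40, was at -0.20 at 16 weeks (adjusted p = 0.229), and Mrps18a at 0.01 (adjusted p = 0.968), whose sign turned with the scaling (-0.105 with the values not centred and -0.024 after cyclic loess). Mrps30 was at -0.28 (adjusted p = 0.144), its 4 values at 16 weeks all below the controls.

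**Figure D4:**
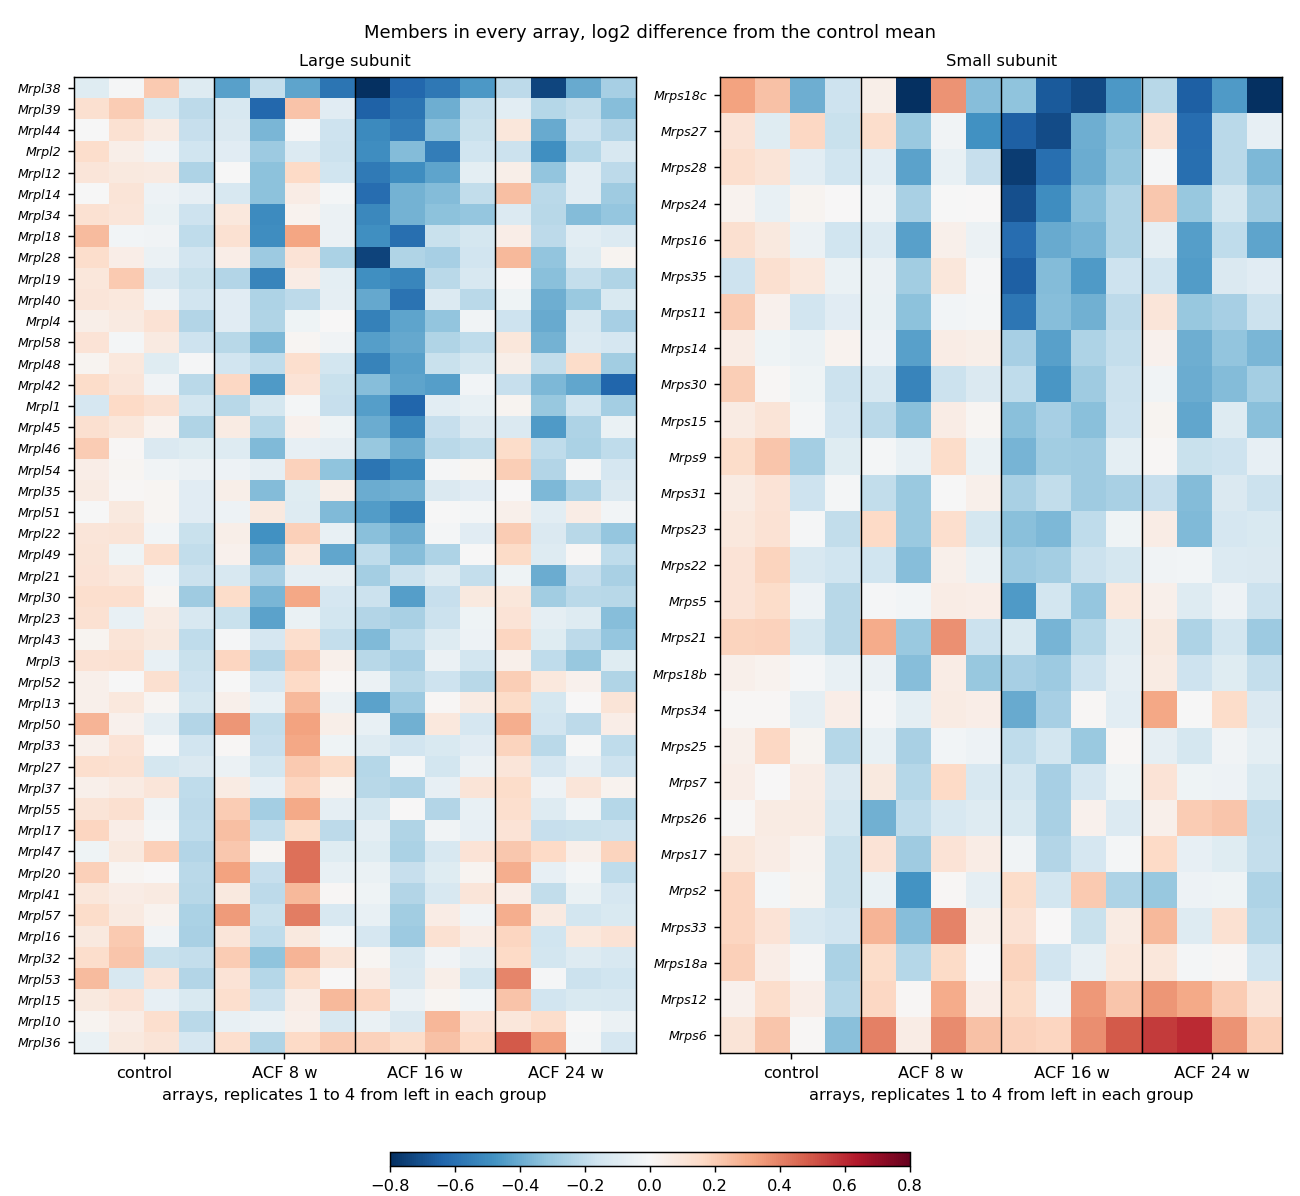
Log2 difference from the control mean (colour, with values beyond 0.8 drawn in the end colours) of all 73 members (rows, by subunit, ordered by the 16-week difference) in the 16 arrays (columns). Blue marks values below the control mean, which 57 to 69 of the 73 members have in 8-week replicate 2, in the 4 arrays at 16 weeks and in 24-week replicates 2, 3 and 4, and 70 in control replicate 4, while Mrps6 is red in every array after the ACF.

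A few members ran the other way. Mrps6, the gene of bS6m, had values of 4.07, 4.19, 3.97 and 3.63 in control rats, 4.37, 4.02, 4.35 and 4.20 at 8 weeks, 4.15, 4.14, 4.34 and 4.46 at 16 weeks and 4.53, 4.56, 4.33 and 4.16 at 24 weeks. At 24 weeks 3 of 4 arrays were above all controls. Its log2 difference was 0.27 (SE 0.13, adjusted p = 0.654) at 8 weeks, 0.30 (SE 0.13, adjusted p = 0.157) at 16 weeks and 0.43 (SE 0.13, adjusted p = 0.114) at 24 weeks. It was called at 24 weeks when 24-week replicate 4 was left out (0.51, adjusted p = 0.045). In that fit 2.67% of all genes rose, against 0.612% with all arrays. Mrps12 was at 0.13, 0.17 and 0.24 and Mrpl36 at 0.07, 0.18 and 0.17 at the 3 times, none of them called. The values of Mrpl36 were 4.00, 3.96, 4.05 and 3.98 at 16 weeks and 3.77, 3.90, 3.92 and 3.69 in control rats.

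At 8 weeks, the compensated stage of the study, the median of the members was -0.07 (large subunit -0.06, small subunit -0.09), and 49 lay below 0, against 50.9% of all genes. None was called by limma, where 0.00703% of all genes fell and 0.0492% rose, or by the methods' unpaired test after adjustment, which called 0% of all genes. At an unadjusted p under 0.05, 1 member was lower (Mrpl38) and none higher, against 3.23% of all genes lower. Mrpl38 was also the 1 member whose 8-week arrays all lay below the controls, as 2.73% of all genes did. Besides Mrpl38 and Mrps6, the members with the smallest p were Mrps30 (-0.24), Mrps26 (-0.20) and Mrpl23 (-0.20). Mrpl23 encodes uL23m at the exit of the tunnel, and Mrps26 encodes a small subunit protein found only in mitochondria. Mrps30 drew on replicate 2, at 3.56, where the others were at 3.93 to 3.98.

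At 24 weeks the median was -0.10 (large subunit -0.09, small subunit -0.13), and 58 members lay below 0, against 49.9% of all genes. None was called by limma, where 0.295% of all genes fell and 0.612% rose, or by the adjusted unpaired test of the methods, which called 0% of all genes. At an unadjusted p under 0.05, 10 members were lower and 2 higher, against 7.42% of all genes lower. In 1 member, Mrpl38, all 24-week arrays lay below all controls, as 4.47% of all genes did. Mrpl42, which encodes a protein found only in mitochondria, was at 5.08, 4.90, 4.85 and 4.63 at 24 weeks and 5.41, 5.36, 5.23 and 5.05 in control rats (log2 difference -0.40, SE 0.14, adjusted p = 0.168), and replicate 1 overlapped the lowest control. Mrps18c was at 2.41, 1.99, 2.18 and 1.53 at 24 weeks and 2.96, 2.87, 2.25 and 2.47 in control rats, so that replicate 1 overlapped here too. Mrpl2 had a log2 difference of -0.26 (SE 0.11, adjusted p = 0.246).

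Comparisons between times after the ACF called no member and no gene (0% in each). At 16 against 8 weeks the members' median was -0.17 (large subunit -0.17, small subunit -0.15), with 66 below 0. The median over all genes was 0.01. There were 12 members lower at an unadjusted p under 0.05, where 3.41% of all genes were lower. The smallest p were those of Mrps24 (-0.37, adjusted p = 0.392), Mrps35 (-0.34, adjusted p = 0.407) and Mrps28 (-0.33, adjusted p = 0.488). At 24 against 16 weeks the members' median was 0.11 (large subunit 0.12, small subunit 0.10), with 62 above 0. The median over all genes was -0.01. There were 5 members higher at an unadjusted p under 0.05, where 3.5% of all genes were higher. Here Mrps24 (0.32, adjusted p = 0.485), Mrps34 (0.27, adjusted p = 0.487) and Mrpl14 (0.30, adjusted p = 0.497) had the smallest p. Mrps34 encodes a small subunit protein found only in mitochondria, and Mrpl14 the large subunit protein uL14m. These 2 comparisons and those with control share arrays. The differences seen at 16 weeks alone are thus not shown to be particular to that time.

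Several members were measured by more than 1 probe set. In 18 members there were 24 further probe sets, of which 20 had the sign of the brightest one at 16 weeks and 4 the opposite sign. Adjusted over all probe sets, 3 of the further ones fell, those of Mrpl12 (-0.63, adjusted p = 0.0173), Mrps15 (-0.51, adjusted p = 0.036) and Mrps26 (-0.36, adjusted p = 0.0227), dimmer than the ones that stood for these genes (-0.39, -0.27 and -0.12, none called). With p adjusted over all probe sets, 8 members fell by at least 1 probe set, and 2.45% of all probe sets fell. These 8 include Mrpl12, Mrps15 and Mrps26. Several members called per gene thus did not pass, among them Mrps27 (adjusted p = 0.0549). Its further probe sets were at -0.38 and 0.00, and that of Mrps24 at -0.18. At the threshold in the study's methods, a fold change above 1.5 with an unadjusted p under 0.05 in an unpaired test, 1 member was lower at 16 weeks, against 1.6% of all genes.

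Most genes that work with the mitoribosome were also below their control level at 16 weeks, and few were called. For the counts that follow, 3.26% of all genes fell and 5.83% rose at 16 weeks. Of 5 measured subunits not named Mrp none was called at 16 weeks, with a median of -0.18 and all 5 below 0; Gadd45gip1, which encodes mL64, was at -0.43 (adjusted p = 0.0814). Of 13 genes listed with the mitochondrial translation factors 2 fell, with a median of -0.16. They were Oxa1l, which inserts new proteins into the inner membrane (-0.47, SE 0.12, adjusted p = 0.025), and Mrrf, the ribosome recycling factor (-0.48, SE 0.14, adjusted p = 0.0451), while Tufm, the elongation factor, was at -0.25 (adjusted p = 0.13). Of 22 genes of ribosome assembly and rRNA maturation 1 fell, Rbfa, which acts on the small subunit (-0.46, SE 0.10, adjusted p = 0.0114), and the median was -0.11. None of 13 mitochondrial aminoacyl-tRNA synthetases was called (median -0.15). A list of 16 genes of mitochondrial transcription and its regulators also holds Polg, the gene of the mitochondrial DNA polymerase. Of these 16, Myc (1.49, adjusted p = 0.0117) and Polg (0.30, adjusted p = 0.0295) rose and none fell, with a median of -0.13. Of 79 subunits of the respiratory chain and ATP synthase 5 fell and none rose (median -0.12), and of 46 cytosolic ribosomal proteins 3 rose and 1 fell (median 0.15). Whether the members differ from these lists was not tested.

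Promoters of members were compared by their letters with those of all genes that have a window, which include genes not measured here. RefSeq gave a window for 59 of the 73 members and 27457 genes in all (assembly GRCr8), and the 250 bases before the start were searched on both strands for GCATGCGC (part of the site of NRF1, a regulator of nuclear genes for mitochondria), CCGGAAG (the ETS site, which GABPA also binds), AAGATGGC (part of the YY1 site) and GGGCGG (SP1). GCATGCGC was in 8.47% of the members' windows and 2.38% of all windows, CCGGAAG in 22% and 7.74%, AAGATGGC in 5.08% and 1.69%, and GGGCGG in 45.8% and 32.4%. No motif was in 23 of the 59. Of the 9 members that fell, 5 had a window, and the 3 with the smallest adjusted p are shown with every match in capitals. Mrpl2 lies on the minus strand at chr9:21834608-21834857, Mrps16 on the plus strand at chr15:3967559-3967808 and Mrpl44 on the plus strand at chr9:88554800-88555049, each read 5′ to 3′ toward the gene.
Mrpl2: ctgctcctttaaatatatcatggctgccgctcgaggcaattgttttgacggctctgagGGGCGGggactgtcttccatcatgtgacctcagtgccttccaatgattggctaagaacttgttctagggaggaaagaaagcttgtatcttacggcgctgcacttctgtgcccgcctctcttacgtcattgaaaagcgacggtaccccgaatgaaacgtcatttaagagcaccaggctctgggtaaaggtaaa
Mrps16: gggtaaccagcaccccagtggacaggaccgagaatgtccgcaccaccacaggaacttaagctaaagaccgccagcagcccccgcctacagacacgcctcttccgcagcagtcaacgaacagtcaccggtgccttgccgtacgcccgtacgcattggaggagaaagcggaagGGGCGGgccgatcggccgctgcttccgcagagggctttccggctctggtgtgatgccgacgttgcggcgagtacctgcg
Mrpl44: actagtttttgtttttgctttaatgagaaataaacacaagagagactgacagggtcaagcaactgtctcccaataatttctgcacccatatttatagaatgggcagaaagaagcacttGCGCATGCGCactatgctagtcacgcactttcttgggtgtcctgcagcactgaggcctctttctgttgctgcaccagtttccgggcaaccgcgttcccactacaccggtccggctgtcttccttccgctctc
In the windows of Mrpl2 and Mrps16 the capitals mark GGGCGG, and in that of Mrpl44 GCATGCGC and its reverse complement, which overlap. The window of Mrps27 held CCGGAAG and GGGCGG on the antisense strand, and that of the remaining called member with a window, Mrps11, held none of the 4. A match says only that the letters are there.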

How the data were processed

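The authors deposited log2 intensities of 31099 probe sets of a 3' rat array in 16 samples, made by RMA in Affymetrix Expression Console 1.2 per the labels. The probe sets are not those of the array that the study's methods name. Each array was centred on the median of its probe sets, leaving out 57 controls of the manufacturer. Gene names came from the array's annotation. Of the other probe sets 20826 carry 1 symbol and were used, 436 carry several and 9780 carry none. For each gene the probe set with the highest mean over all arrays was kept, which gave 14217 genes, with no filter on dim ones. All 73 member IDs were found in a RefSeq gene table (GRCr8). One limma model (version 3.58.1, R 4.3.3) without a block took in the 16 arrays, and Benjamini-Hochberg adjustment of p covered all genes (threshold 0.05). SE is that of the model. Groups come from the labels, which give separate rats. The number of arrays limits the precision.

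The members, the gene lists and the subunit classes were chosen with earlier results of these data known. Named members were up to 10 called in each direction per comparison with control, or the 5 with the smallest p where fewer were called, the 3 with the smallest p between times, the Mrps18 forms and Mrps30. From each list the genes called or with the smallest p were named. Members named for another reason were chosen after their values were seen. The functions were tested on simulated data. Alternatives were values not centred, cyclic loess, the array level as a block, arrays of the higher level only, the 8 arrays compared, a variance trend with robust options, array weights, the mean of probe sets, all probe sets, the upper 50% of genes, the methods' unpaired test, the replicate block and leaving out each array. Leaving out 16-week replicates 1 and 2 together was chosen after seeing the data. Promoters were searched in Python 3.11.15.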

Additional observations from a re-analysis of the deposited data

Results flagged for a closer look

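In 4 of 84 groups of 4 arrays that were examined (21 members or subunit medians in 4 groups), 1 array stood far from the other 3, about as many as chance gives at 1 in 20. In 3 of them it was 8-week replicate 2, at a log2 difference from the control mean of -0.33 for Mrps11 (the others at -0.05 to -0.02), -0.26 for Mrps24 (the others at -0.03 to 0.00) and -0.53 for Mrps30 (the others at -0.17 to -0.12). This array was the 1 array of its group at the lower array level, and it was the lowest of its group in 62 of 73 members. The 4th was the median of the small subunit in 16-week replicate 4, at -0.11, where the others were at -0.27 to -0.25.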

How the results depend on the processing

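The count of members that fell at 16 weeks was 9 with centred arrays, where 3.26% of all genes fell. It was 20 with the deposited values not centred (7.08% of all genes), 18 after cyclic loess (4.48%) and 15 with array weights (4.56%). Within the arrays of the higher level it was 26 (4.98%), but there replicates 1 and 2 alone stand for 16 weeks. With the array level as a block it was 6 (4.18%), and with only the 8 arrays compared 7 (2.26%). The variance trend with robust options gave 8 (3.21%), the mean of probe sets 10 (3.17%) and the upper 50% of genes 11 (5.82%). By the methods' unpaired test it was 0 after adjustment (0.464%) and 1 with a fold above 1.5 (1.6%). Without 16-week replicates 1 and 2 it was 0 (0.45%). Leaving out 1 array at a time gave 1 to 13. At 24 weeks 14 members fell with the values not centred, where 11.2% of all genes did. Leaving out 1 array gave 0 to 1 called at 24 weeks (Mrps6, which rose, in a fit where 2.67% of all genes did). At 16 against 8 weeks 2 fell within the higher level (0.521% of all genes). Without centring the median of all genes lay at -0.06, -0.12 and -0.21 at 8, 16 and 24 weeks and that of the members at -0.13, -0.32 and -0.30, so the fall of 14 members at 24 weeks came with a shift in the median of all genes. The large minus small median at 16 weeks was -0.029 within the higher level, and at 16 against 8 weeks it was -0.12 there and 0.053 without 16-week replicates 1 and 2. Why these values differ was not tested. No comparison at 24 weeks could be made within the higher level. With the replicate number as a block, 6 members fell at 16 weeks and 0 in the other comparisons. The labels do not say whether equal numbers pair the rats. Of 24 correlations of same-numbered arrays, 6 were over 0.1 (-0.32 to 0.24). These cannot decide it, since they do not show what the numbers stand for. Of 28 alternatives, Mrpl38 was called at 16 weeks in 26 (adjusted p 0.00207 to 0.11), Mrps28 in 22, Mrps24 in 20, Mrpl2 in 18, Mrps16, Mrps27 and Mrps35 in 15, Mrpl44 in 13 and Mrps11 in 10. None of these 9 changed direction. Mrps18a, not called at 0.01, was at -0.105 with the values not centred, -0.024 after cyclic loess, -0.055 with array weights and -0.071 to 0.075 with 1 array left out.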
